A study of Homo sapiens with 11 samples.

Results

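Chaperones and proteases that work inside mitochondria were followed through 10 genes, HSPD1, HSPE1, HSPA9, TRAP1, DNAJA3, GRPEL1, LONP1, CLPP, YME1L1 and HTRA2, which were taken by name from a count table of 38021 genes. Each of the 10 has an entry of its own, and all 10 were among the 17793 genes that passed the filter on low counts. In a single library their counts ran from 1404, for GRPEL1, to 45060, for HSPD1.

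The cells were HEK293T, an established line derived from human embryonic kidney and wild type by the labels. Plates were treated for 6 h with vehicle (0.1% DMSO), with thapsigargin (Tg in the labels) at 500 nM, with the compound AA147 at 10 µM, or with the compound AA132 at 0.1, 0.3, 1, 3, 6, 10, 15 or 30 µM. Tg inhibits the pump that fills the endoplasmic reticulum (ER) with calcium, which disturbs protein folding there, and the series title places AA147 and AA132 among pharmacological regulators of ER protein homeostasis. The labels name a single sample per condition, but the count table has 3 numbered columns per condition, which were treated as replicate libraries (n = 3). The labels do not say whether the columns come from separate cultures, so every p-value measures only the spread between these columns, which may be technical. No condition stresses mitochondria directly by its label, and all conditions rest on 1 cell line.

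Most mitochondrial proteins are made in the cytosol, imported as unfolded chains and folded inside the organelle. HSPA9 (mortalin) is the HSP70 of the matrix that pulls in and folds these chains, with DNAJA3 as a J-domain partner and GRPEL1 as its nucleotide exchange factor. HSPD1 (HSP60) and HSPE1 (HSP10) form the barrel and the lid of the matrix chaperonin, and TRAP1 is the HSP90 of mitochondria. LONP1 and CLPP are matrix proteases that remove damaged proteins, YME1L1 is a protease of the inner membrane that faces the intermembrane space, and HTRA2 is a serine protease of the intermembrane space. Genes of this kind are the classical readout of the mitochondrial unfolded protein response, in which the transcription factors ATF4, ATF5 and DDIT3 (CHOP) have been implicated in mammalian cells.

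HSPD1 and HSPE1 are neighbours on chromosome 2, transcribed away from each other from a shared promoter region. The stretch between their RefSeq start sites is shown first because the chaperonin pair is the only one among the 10 genes to share a start region. The stretches upstream of HSPA9 and LONP1 follow because these 2 genes had the largest rises under Tg. All are from RefSeq on GRCh38.p14, written 5′ to 3′ on the strand named, and the capitals mark the letters CACGTG, the palindromic core of an E-box.
HSPE1 and HSPD1, chr2:197500275-197500378, plus strand: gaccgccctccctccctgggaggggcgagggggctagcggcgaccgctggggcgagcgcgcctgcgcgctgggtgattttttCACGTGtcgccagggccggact
HSPA9, chr5:138575402-138575521, minus strand: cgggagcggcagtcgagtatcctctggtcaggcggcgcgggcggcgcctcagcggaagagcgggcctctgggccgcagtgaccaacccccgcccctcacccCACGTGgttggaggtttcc
LONP1, chr19:5720147-5720266, minus strand: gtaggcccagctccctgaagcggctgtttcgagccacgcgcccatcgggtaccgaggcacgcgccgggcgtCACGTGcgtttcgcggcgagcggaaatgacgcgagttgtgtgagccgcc

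RefSeq promoter windows, from 250 bases before to 50 bases after a start site, were at hand for 7 of the 10 genes (10 windows, since HSPD1, LONP1 and HTRA2 have 2 each). They did not cover GRPEL1, CLPP and YME1L1. Searched on both strands, CACGTG lay at position -22 from the HSPE1 start, at -19 from the HSPA9 start, and at -212 and -49 from the LONP1 start, counted to the first base of the match. The HSPE1 match is the same 6 bases as the one at -88 from the nearer HSPD1 start (197500274), which is 104 bases of intervening sequence away from the HSPE1 start (197500379). CACGTG was added to the search after the windows had been read, and it occurs in 7.26% of all 35116 windows of this length.

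Of the other letters searched, GAANNTTC, the core of a heat shock element, occurred once, at -240 from the second HSPD1 start (197499840), against 6.77% of all windows. TGACNNNGC, the core of an antioxidant response element, occurred once, at -211 from the TRAP1 start, against 13.3% of all windows. TGATGNAA, the composite element bound by C/EBP and ATF factors (3.62% of windows), TGACGTG, the core of the unfolded protein response element (1.97%), and CCAAT followed after 9 bases by CCACG, the ER stress element (0.0769%), were not found in the windows of these genes. Windows of DNAJA3 and HTRA2 held none of the letters searched. TGACGTG shares the letters ACGTG with the E-box core, and the ER stress element ends in letters that overlap it as well.

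Vehicle-treated cells held these transcripts at very different levels. Per kilobase of the GENCODE v44 canonical transcript, in CPM (counts scaled to library size), HSPD1 stood at 512.8 ± 36.7 and HSPE1 at 232 ± 18.1 (SD, n = 3). HSPA9 followed at 123.2 ± 1.71 and TRAP1 at 118.2 ± 15.7 CPM per kilobase, which do not differ beyond their spread. YME1L1 stood at 66.5 ± 7.85, LONP1 at 56.7 ± 9.06, CLPP at 53.5 ± 9.04 and HTRA2 at 52.2 ± 7.92. Ranges of 1 SD around these means overlapped between neighbours in the order. DNAJA3, at 36.4 ± 1.48, and GRPEL1, at 18.9 ± 0.973 CPM per kilobase, were the lowest of the 10 and did not overlap. The matrix HSP70 was thus listed at 6.54 ± 0.381 times its exchange factor GRPEL1, and the chaperonin barrel HSPD1 at 2.22 ± 0.242 times its lid HSPE1, as within-library ratios of CPM per kilobase.

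**Figure D1:**
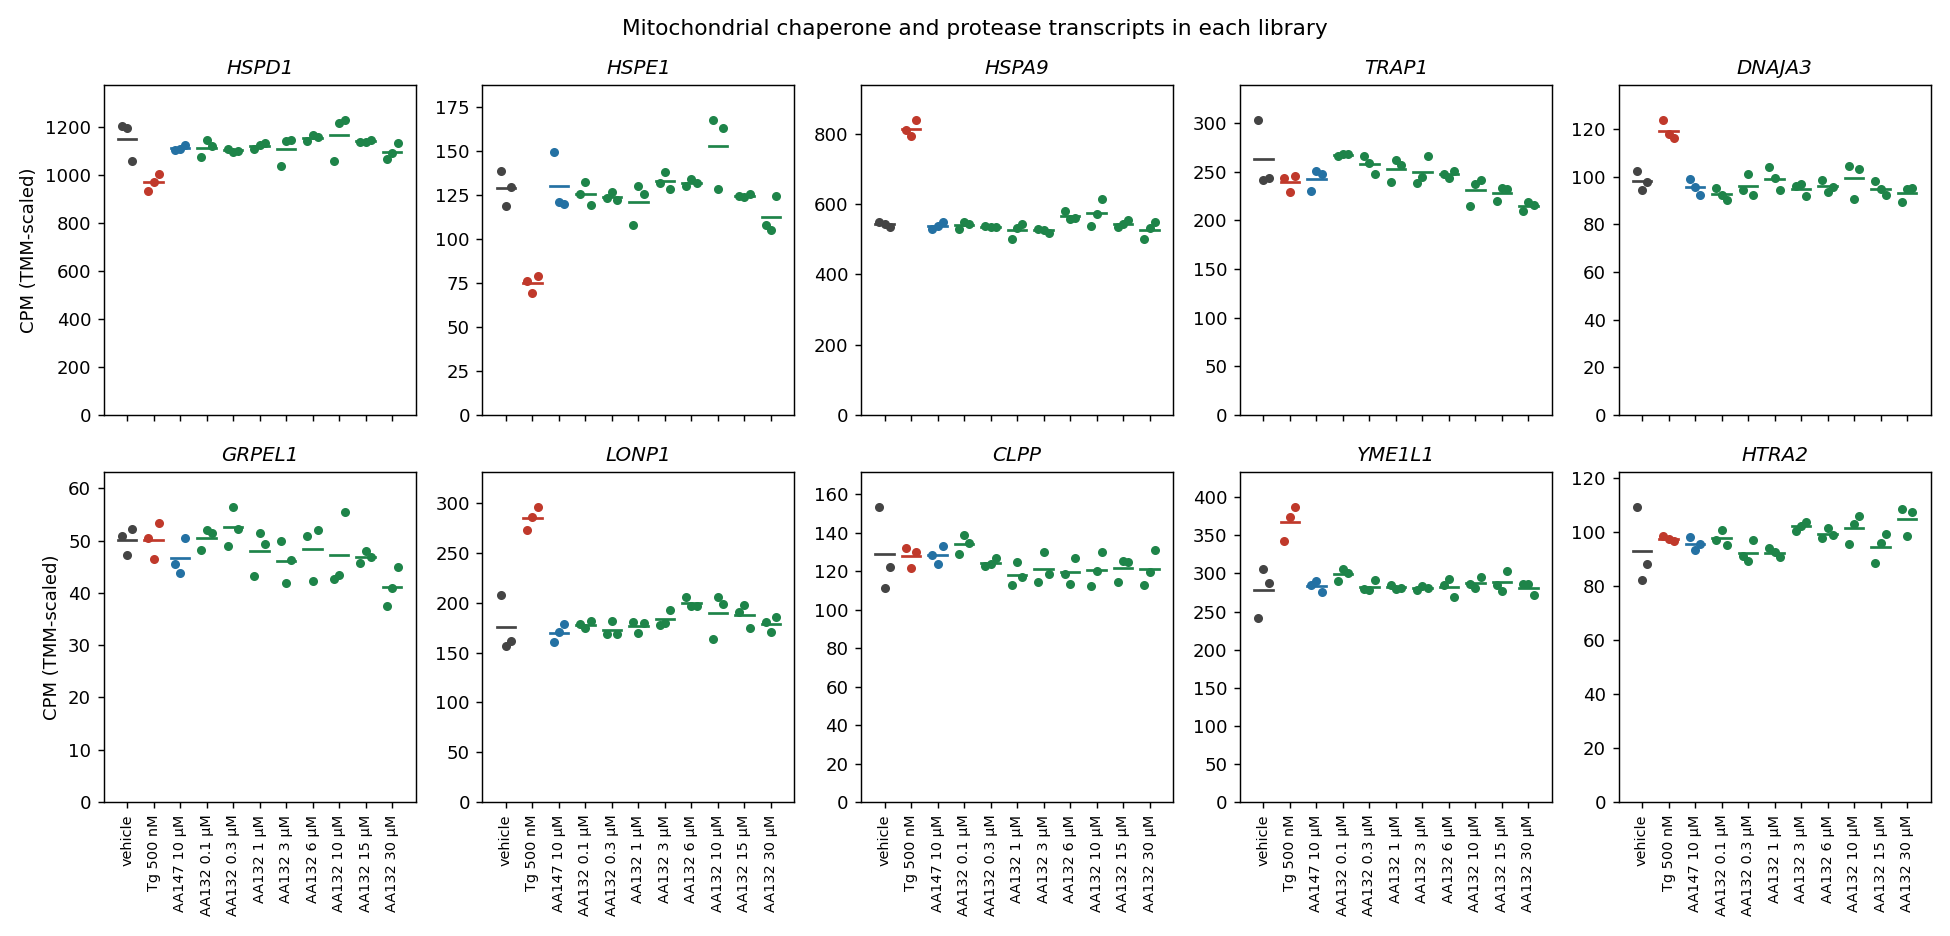
Each panel plots one gene as CPM scaled by TMM on a linear axis from 0, with the 11 conditions along the horizontal axis, a dot for each of the 3 libraries and a bar for their mean. HSPA9, LONP1, YME1L1 and DNAJA3 stand highest under Tg and HSPE1 stands lowest there, at 75.0 CPM against 129 in vehicle, while vehicle library 1 lies apart in TRAP1, LONP1, CLPP and HTRA2.

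Library totals ran from 32.3 to 37.96 M counts, with the second lowest at 36.4 M, and the spread between columns of a condition corresponded to a coefficient of variation of 9.09%. The line's own genes KRT8, KRT18, VIM, NEFM and LIN28B were present in all 33 libraries, with medians from 19.5 (LIN28B) to 1297 CPM (VIM). Markers of other cell types (PTPRC, PECAM1, ALB, COL1A2, DCN and MYH7) were at 0 in 25 to 31 of the 33 libraries and never above 5 counts. Vehicle library 1 stood apart from the other libraries. Against the other 2 vehicle libraries its log2 values shifted by 0.27 for each 10% of transcript GC content, while the figure for libraries of the treated conditions lay between -0.09 and 0.08. Vehicle library 2 had -0.19. In vehicle library 1, 8 of the 10 genes were above both other vehicle libraries. That count does not set it apart, since it was also 8 in AA132 0.1 µM library 2, whose GC figure was -0.01. The GC-rich LONP1, CLPP, HTRA2 and TRAP1 stood at 118.4%, 118.9%, 117.2% and 115.3% of the vehicle mean in vehicle library 1. YME1L1, with a GC content of 40.3%, stood at 86.9%.

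**Figure D2:**
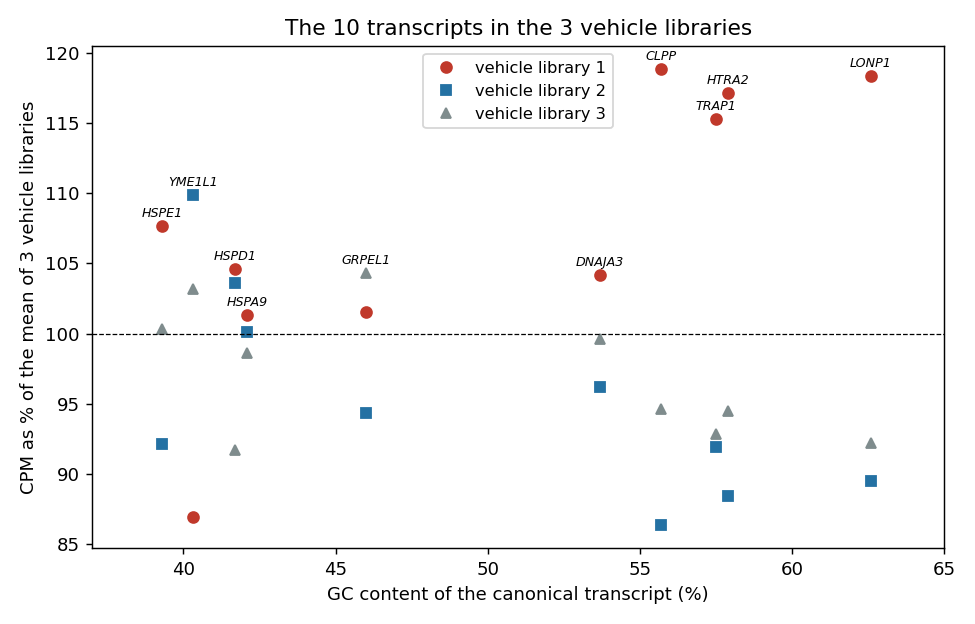
For each gene, the horizontal axis gives the GC content of its canonical transcript in percent and the vertical axis its CPM in each vehicle library as a percent of the mean of the 3. Library 1 lies between 115.3% and 118.9% for the 4 genes with a GC content of 55.7% or more and at 86.9% for YME1L1.

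The first comparison, Tg against vehicle, asks how ER stress affects these transcripts. Under Tg, LONP1, HSPA9, YME1L1 and DNAJA3 rose, HSPE1 and HSPD1 fell, and TRAP1, GRPEL1, CLPP and HTRA2 did not pass the test. So 6 of the 10 genes were called (edgeR quasi-likelihood F-test, Benjamini-Hochberg adjusted p under 0.05 over all genes), 4 higher and 2 lower, where 31.2% of all genes tested were called, 16.2% higher and 15.0% lower. The 3 Tg libraries did not overlap the 3 vehicle libraries for the same 6 genes, against 38.2% of all genes tested. The median log2 fold change of the 10 genes was 0.03, beside 0.00 for all genes tested, with rises and falls on both sides. RNA came from whole plates, so a change of RNA per cell and a change in the cells present cannot be told apart.

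In the chaperonin, HSPE1 (chromosome 2, 197500140 to 197503449, plus strand) had 138.9, 118.8 and 129.4 CPM in the vehicle libraries and 76.1, 69.5 and 79.3 CPM under Tg. All 3 Tg libraries were far below the lowest vehicle library, and the fitted difference was -0.78 on the log2 scale (SE 0.09, edgeR adjusted p = 1.69e-08). HSPD1 (chromosome 2, 197486584 to 197516737, minus strand) had 1204, 1193 and 1056 CPM in vehicle and 932, 972 and 1002 CPM under Tg. The groups came close but did not overlap, and the fall of HSPD1 was smaller, -0.25 on the log2 scale (SE 0.06, adjusted p = 7.69e-04). With log2 values corrected for GC content, the difference was -0.39 for HSPD1 and -0.96 for HSPE1, and both were still called. The barrel-to-lid ratio per kilobase was 2.15, 2.49 and 2.03 in the vehicle libraries and 3.04, 3.47 and 3.14 under Tg, so HSPD1 and HSPE1 were not held in 1 proportion. No test was made of these ratios.

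The GENCODE span of HSPD1 contains HSPE1 on the opposite strand, although their canonical exons share no base. A read-through entry, HSPE1-MOB4, shares 192 bases with the canonical HSPE1 exons and took 208 to 336 counts a library, 5.61% of the HSPE1 counts. GENCODE v44 also lists 18 HSPD1 and 26 HSPE1 pseudogenes, none of which has an entry under its name in the count table. The assignment of reads between these copies and the parent genes is therefore uncertain.

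Among the partners of the matrix HSP70, HSPA9 (chromosome 5, 138553756 to 138575675) had 549.7, 543.0 and 534.7 CPM in vehicle and 810.2, 792.1 and 838.0 CPM under Tg. The HSPA9 libraries lay close together in both groups, with a log2 fold change of 0.58 (SE 0.05, adjusted p = 2.62e-11), a fold of 1.499 with a 95% interval of 1.397 to 1.609. Between Tg and vehicle, log2 fold changes over the genes with a GC value shifted by -0.11 for each 10% of GC content. With GC content corrected, the rise of HSPA9 was 0.45 and still called (adjusted p = 7.52e-07). DNAJA3 (chromosome 16, 4425805 to 4456775), its J-domain partner, had 102.5, 94.6 and 97.9 CPM in vehicle and 123.7, 118.1 and 116.4 CPM under Tg. That smaller rise of DNAJA3, 0.28 on the log2 scale (SE 0.06, adjusted p = 3.58e-04), also left no overlap. GRPEL1 (chromosome 4, 7058671 to 7068085), the exchange factor, had 50.8, 47.2 and 52.2 CPM in vehicle and 50.6, 46.5 and 53.3 CPM under Tg. Its groups lay on top of each other, with a log2 fold change of 0.00 and a 95% interval of -0.19 to 0.19 (adjusted p = 0.987). The ratio of HSPA9 to GRPEL1 per kilobase went from 6.54 ± 0.381 in vehicle to 9.79 ± 0.411 under Tg.

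TRAP1 (chromosome 16, 3651639 to 3717553), the mitochondrial HSP90, had 302.9, 241.3 and 243.8 CPM in vehicle and 243.2, 229.0 and 246.1 CPM under Tg. The Tg libraries overlapped vehicle libraries 2 and 3, with a log2 difference of -0.13 (SE 0.07, adjusted p = 0.132). The value turned on which vehicle libraries were used. It was -0.03 (adjusted p = 0.804) without vehicle library 1, -0.21 and called (adjusted p = 0.0208) without library 2, and -0.19 (adjusted p = 0.0527) without library 3. DNASE1, on the opposite strand, covers 39.0% of the canonical TRAP1 exon bases and had a median of 324 counts a library, and the use of strand in counting is not given in the sources used here.

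Of the proteases, LONP1 (chromosome 19, 5691834 to 5720572) had 207.6, 156.9 and 161.7 CPM in vehicle and 273.7, 285.9 and 296.0 CPM under Tg. It had the largest rise of the 10 genes, 0.70 on the log2 scale (SE 0.08, adjusted p = 1.83e-08), and 0.83 (adjusted p = 2.19e-11) without vehicle library 1. RPL36, an abundant ribosomal protein gene on the opposite strand, shares 42 bases (1.4%) with the canonical LONP1 exons. It had a median of 18060 counts a library, against 5779 to 10871 counts for LONP1, and the use of strand in counting is not given. YME1L1 (chromosome 10, 27110111 to 27155266) had 242.2, 306.2 and 287.4 CPM in vehicle and 343.1, 373.8 and 386.9 CPM under Tg. Every Tg library of YME1L1 exceeded the highest vehicle library, with a log2 fold change of 0.40 (SE 0.06, adjusted p = 4.39e-06). The rise of YME1L1 was 0.30 (adjusted p = 6.07e-05) without vehicle library 1 and 0.26 (adjusted p = 8.66e-05) with GC content corrected, and it was called in both fits.

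CLPP (chromosome 19, 6361531 to 6370242) and HTRA2 (chromosome 2, 74529596 to 74533350) did not pass the test under Tg. CLPP had 153.3, 111.3 and 122.0 CPM in vehicle and 131.9, 121.5 and 130.3 CPM under Tg, a log2 difference of -0.01 (SE 0.08, adjusted p = 0.939). Without vehicle library 1 its sign turned, to 0.13 (adjusted p = 0.199). For HTRA2 the values were 109.2, 82.3 and 88.1 CPM in vehicle and 98.6, 97.3 and 96.8 CPM under Tg. The Tg libraries of HTRA2 fell inside the wide vehicle range, with a log2 difference of 0.07 (SE 0.07, adjusted p = 0.514). Without vehicle library 1, HTRA2 was called at 0.19 (adjusted p = 0.0148), and without library 2 the value was -0.03 (adjusted p = 0.769). LOXL3, on the opposite strand, covers 33.4% of the canonical HTRA2 exon bases and had a median of 89 counts. Between the matrix proteases, the ratio of LONP1 to CLPP per kilobase was 1.06 ± 0.0331 in vehicle and 1.74 ± 0.112 under Tg.

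**Figure D3:**
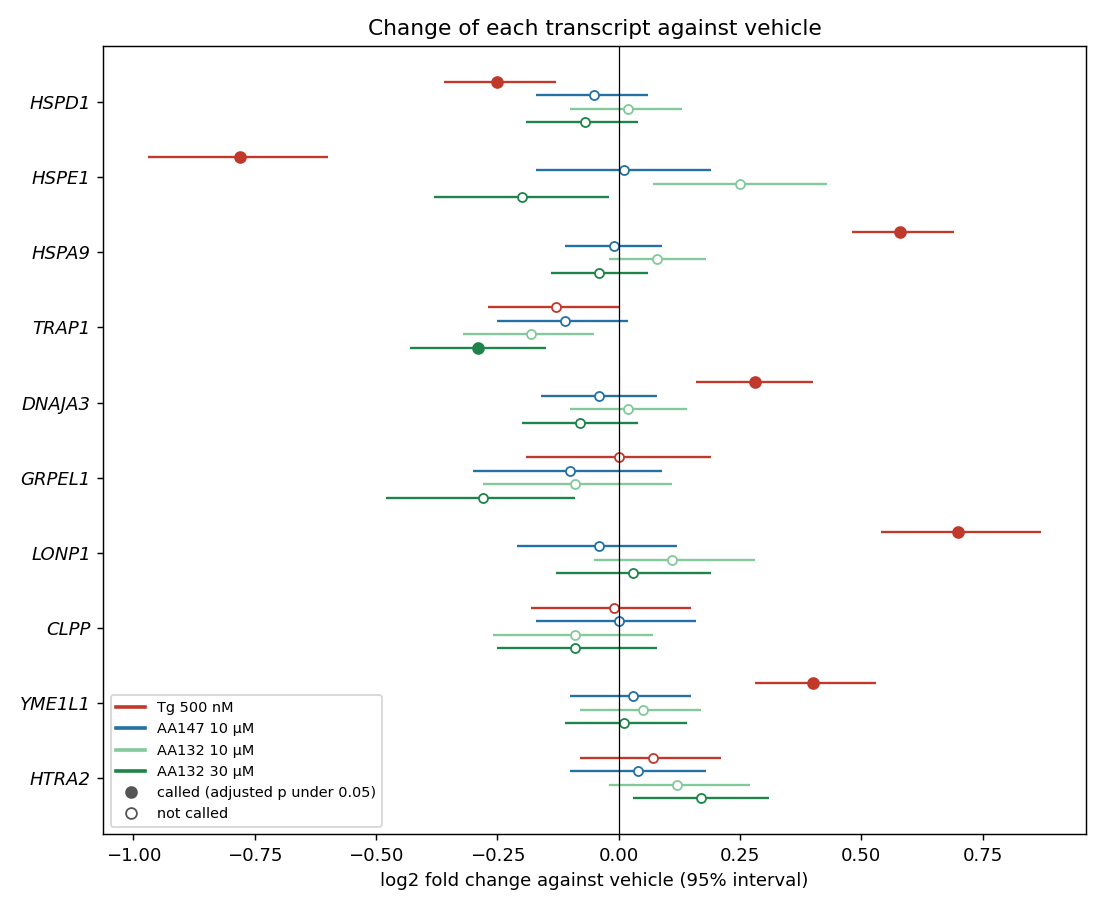
Points give the log2 fold change of each gene against vehicle under Tg, AA147 at 10 µM and AA132 at 10 and 30 µM, with bars for the 95% interval and filled points for genes called at an adjusted p under 0.05. Under Tg 6 points are filled, from -0.78 (HSPE1) to 0.70 (LONP1), under AA132 at 30 µM TRAP1 alone is filled, and no point is filled under AA147 or AA132 at 10 µM.

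Other genes of mitochondrial protein quality control, in lists written with earlier results of these data known, moved in both directions under Tg. Among 20 further mitochondrial chaperones and proteases, 7 were called, 1 higher and 6 lower, beside 31.2% of all genes tested (16.2% higher and 15.0% lower). The median log2 fold change of the 20 was -0.03. The one that rose was GRPEL2, the paralog of GRPEL1, with 7.18 CPM in vehicle and 13.9 CPM under Tg (0.95 on the log2 scale, SE 0.14, adjusted p = 3.47e-06). The 6 that fell were PMPCA, a subunit of the processing peptidase that cleaves import signals (-0.64), LACTB, a mitochondrial serine protease-like protein (-0.65), OMA1, a stress-activated inner membrane protease (-0.49), the prohibitin PHB (-0.41), SPG7, a subunit of the matrix-facing membrane AAA protease (-0.39), and the intermediate peptidase MIPEP (-0.23). CLPX, the unfoldase that feeds CLPP, had 73.4 CPM in vehicle and 72.2 CPM under Tg (-0.02, adjusted p = 0.808).

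Of 18 genes of protein import, 6 were called under Tg, 3 in each direction, beside 31.2% of all genes tested. TIMM9, a small chaperone of the intermembrane space (0.68), TIMM17A, a channel subunit of the inner membrane (0.57), and TIMM44, which tethers HSPA9 to that channel (0.48), rose. TOMM22 (-0.34) and TOMM5 (-0.31) of the outer membrane complex and TIMM21 (-0.28) fell. TIMM44 went from 83.3 to 116.0 CPM, so the tether and the HSP70 it holds were both higher.

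In the cytosol, 6 of the 8 subunits of the chaperonin TRiC were called, all lower, beside 15.0% of all genes tested called lower. The called values ran from -0.18 (CCT8) to -0.46 (CCT6A). The cytosolic and ER relatives of the mitochondrial chaperones were all called, 7 of 7, beside 31.2% of all genes tested, and split by compartment. Cytosolic HSPA8 fell by 1.55 on the log2 scale, HSP90AA1 by 0.71, HSP90AB1 by 0.57 and DNAJA1 by 0.76. Their ER relatives HSPA5 (3.52), HSP90B1 (2.02) and DNAJB11 (1.73) rose. HSPA9, at 0.58, and TRAP1, at -0.13, therefore had values between those of their ER and cytosolic relatives. Of the transcription factors, DDIT3 rose from 7.86 to 96.7 CPM (3.62) and ATF4 from 466 to 982 CPM (1.08), while ATF5 had 10.9 CPM in vehicle and 10.6 CPM under Tg (-0.04, adjusted p = 0.850).

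AA147 at 10 µM was compared with vehicle. No gene of the 10 was called, beside 0.0225% of all genes tested. An unadjusted p under 0.05 was found for 0 of the 10, beside 6.81% of all genes. DESeq2 also called 0. Log2 differences ran from -0.11 (TRAP1) to 0.04 (HTRA2), and all 10 intervals lay between -0.30 and 0.19. Without vehicle library 1 the differences ran from -0.09 (GRPEL1) to 0.17 (HTRA2), again with none called, and LONP1 went from -0.04 to 0.10. HSPD1 had 1102, 1108 and 1123 CPM, HSPA9 528.5, 536.4 and 549.5 CPM and LONP1 160.9, 170.6 and 179.0 CPM under AA147, each overlapping its vehicle values. HSPE1 had 149.6, 120.9 and 120.2 CPM, with 1 library above and none below the vehicle range. In the lists of other quality control genes, import genes, TRiC subunits, cytosolic and ER relatives and transcription factors, edgeR called 0 genes under AA147. Unadjusted p-values were under 0.05 for 1 of the 20 quality control genes, 3 of the 7 relatives and 1 of the 3 transcription factors, and DESeq2 called 1 of the relatives.

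AA132 was given at 8 doses, all compared with the same 3 vehicle libraries, which the Tg and AA147 comparisons share. At 0.1, 0.3 and 1 µM no gene of the 10 was called, beside 0% of all genes at each of the 3 doses. None of the 10 had an unadjusted p under 0.05 there, beside 4.47%, 5.51% and 5.94% of all genes. At 3, 6, 10 and 15 µM again none of the 10 was called, beside 0.118%, 1.07%, 1.41% and 2.76% of all genes, and DESeq2 called none at any of these 7 doses. At these 4 doses 0, 1, 2 and 1 of the 10 had an unadjusted p under 0.05, beside 9.19%, 12.3%, 12.9% and 16.3% of all genes. At 30 µM 4 of the 10 did, beside 20.5% of all genes. At that dose 1 of the 10, TRAP1, was called, lower than vehicle, beside 7.05% of all genes tested (3.19% lower).

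LONP1 under AA132 stayed between 164.1 and 206.3 CPM in all 24 libraries. Its highest group was 6 µM, at 206.3, 197.3 and 196.6 CPM, which is above vehicle libraries 2 and 3 and just below library 1. The log2 difference at 6 µM was 0.19 (SE 0.08, adjusted p = 0.313) with all vehicle libraries and 0.33 (adjusted p = 0.00756) without vehicle library 1. At 10 µM it was 0.11 (adjusted p = 0.570), and 0.25 (adjusted p = 0.0394) without vehicle library 1. With GC content corrected, LONP1 was not called at 6 µM (0.17, adjusted p = 0.115) or at 10 µM (0.12, adjusted p = 0.280). Nor was it called at 6 µM without vehicle library 2 (0.11, adjusted p = 0.548) or library 3 (0.13, adjusted p = 0.513). At 30 µM LONP1 had 181.2, 170.9 and 185.4 CPM, with a difference of 0.03 (adjusted p = 0.877), and 0.17 (adjusted p = 0.127) without vehicle library 1.

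HSPE1 had its highest values of the series in 2 of the 3 libraries at 10 µM, with 167.6, 128.4 and 163.4 CPM. At that dose, library 3 had the lowest total of the series, 32.3 M counts. The shift for each 10% of GC content was -0.09 in library 1 and 0.08 in library 2. Library 2 at that dose lay inside the vehicle range, and the log2 difference of 0.25 (SE 0.09) was not called (adjusted p = 0.182). Without that library it was 0.36 and called (adjusted p = 0.0322). With GC content corrected it was 0.15 (adjusted p = 0.501), and without vehicle library 2 it was 0.18 (adjusted p = 0.343), neither called. HSPE1 was at 124.4, 124.1 and 125.9 CPM at 15 µM and at 108.1, 105.4 and 124.6 CPM at 30 µM, so it did not keep rising with dose. HSPD1 varied little over the doses, from a mean of 1095 CPM at 30 µM to 1166 CPM at 10 µM.

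HSPA9 had its highest AA132 mean at 10 µM, 574 CPM, from libraries at 536.2, 572.6 and 613.1 CPM, and its lowest at 3 µM, 525 CPM. Neither passed the test (log2 differences of 0.08 and -0.05). DNAJA3 means ran from 92.7 to 99.6 CPM over the 8 doses, YME1L1 means from 281 to 299 CPM and CLPP means from 118 to 134 CPM, all of them inside the range of their vehicle libraries except the DNAJA3 mean at 0.1 µM and at 30 µM (93.2 CPM), which lay just below it. CLPP differences from vehicle ran from -0.12 to 0.06 on the log2 scale over the 8 doses, and from 0.02 to 0.20 without vehicle library 1, and none was called.

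HTRA2 had 108.5, 98.5 and 107.3 CPM at 30 µM and a log2 difference of 0.17 (SE 0.07, adjusted p = 0.149). The value depended on vehicle library 1, at 109.2 CPM, since without it HTRA2 was called at 3 µM (0.26, adjusted p = 0.0383), 6 µM (0.22, adjusted p = 0.0323), 10 µM (0.25, adjusted p = 0.0123) and 30 µM (0.30, adjusted p = 9.40e-04). With that library left out and GC content corrected, HTRA2 was called at 30 µM (0.22, adjusted p = 0.00974) and not at the other 3 doses.

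Of the 10 genes, TRAP1 had the steepest trend over the AA132 doses. From the lowest to the highest dose its mean CPM was 267.5, 257.7, 252.7, 249.5, 247.4, 231.2, 228.4 and 214.9, lower at each step. At 0.1 µM its libraries held 266.3, 268.4 and 267.8 CPM and at 30 µM 210.0, 218.8 and 216.0 CPM, with no overlap. A slope on log10 dose over the 24 AA132 libraries, which uses no vehicle library, was -0.11 log2 per unit of log10 dose (SE 0.02, adjusted p = 1.95e-05). The call held in all 24 fits with a single AA132 library removed, and also without the 30 µM dose (-0.09, adjusted p = 0.00116).

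Against vehicle, TRAP1 at 30 µM had a log2 difference of -0.29 (SE 0.07, adjusted p = 0.00590) and lay below all 3 vehicle libraries. The size depended on vehicle library 1, at 302.9 CPM: without it the difference was -0.17 (adjusted p = 0.0496). In a fit of these 2 conditions alone, TRAP1 was not called (-0.29, adjusted p = 0.297). At 15 µM the difference was -0.20 (adjusted p = 0.100), and -0.09, not called, without vehicle library 1. It was called there without vehicle library 2 (-0.27, adjusted p = 0.0221) or with GC content corrected (-0.21, adjusted p = 0.0192).

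GRPEL1, the exchange factor of HSPA9, was the second gene with a called slope. Together 2 of the 10 slopes were called, both lower, beside 18.5% of all genes tested (8.75% lower). The slope of GRPEL1 was -0.09 log2 per unit of log10 dose (SE 0.03, adjusted p = 0.0212). At 0.1 µM its libraries held 48.2, 52.0 and 51.5 CPM and at 30 µM 37.4, 41.0 and 45.0 CPM. The slope rested on the top dose, since without it the value was -0.06 (adjusted p = 0.196). It was also not called without library 1 at 30 µM (adjusted p = 0.0626) or library 2 at 0.3 µM (adjusted p = 0.0514). Against vehicle, GRPEL1 at 30 µM lay below all 3 vehicle libraries with a log2 difference of -0.28 (SE 0.09, adjusted p = 0.0630). It was called without the filter on low counts (adjusted p = 0.0319), with DESeq2 (0.0411), and with GC content corrected (0.0340). Leaving out AA132 10 µM library 3, AA132 30 µM library 3 or vehicle library 2 also gave a call (adjusted p = 0.0400, 0.0420 and 0.0498). No other single library left out did. Without vehicle library 1 the difference was -0.27 (adjusted p = 0.0822), and without vehicle library 3 it was -0.25 (adjusted p = 0.164).

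**Figure D4:**
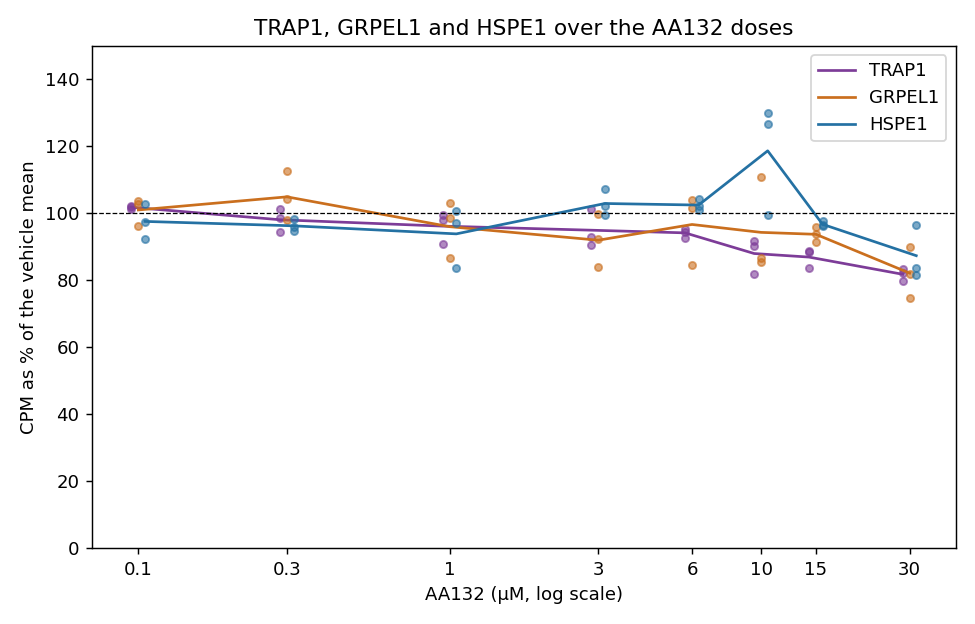
TRAP1, GRPEL1 and HSPE1 are plotted as a percent of their vehicle mean on a linear axis against AA132 dose in µM on a log axis, with a dot for each library and a line through the means of 3 libraries. TRAP1 goes down at each step, GRPEL1 has its lowest mean at 30 µM, at 41.1 CPM, and HSPE1 peaks at 10 µM with 1 of its 3 libraries near 100%.

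The other 8 slopes on AA132 dose were not called. They ran from -0.04 (CLPP, adjusted p = 0.132) to 0.04 (LONP1, adjusted p = 0.171, and HTRA2, adjusted p = 0.123). HTRA2 was called without AA132 15 µM library 1 (0.05, adjusted p = 0.0494), and CLPP without AA132 30 µM library 3 (-0.06, adjusted p = 0.0442). Across the same doses 5 of the 7 cytosolic and ER relatives had called slopes, all upward, beside 18.5% of all genes tested. They included the ER relatives HSPA5 (0.68), HSP90B1 (0.41) and DNAJB11 (0.34) but were not confined to the ER. Of the 3 transcription factors, DDIT3 (0.72) and ATF4 (0.15) had called slopes. These values are per unit of log10 dose on the log2 scale. Of the 20 further mitochondrial chaperones and proteases, 6 had a called slope, 3 in each direction, beside 18.5% of all genes tested. LACTB was the steepest upward (0.17) and the signal peptidase subunit IMMP2L the steepest downward (-0.18). PMPCA also went down (-0.11). Of the 18 import genes 4 were called, beside the same 18.5% of all genes. TIMM17A (0.07) and TIMM21 (0.06) went upward, and TOMM22 (-0.10) and TOMM40 (-0.09) downward. Of the 8 TRiC subunits 0 were called by edgeR or DESeq2, or had an unadjusted p under 0.05, beside 30.8% of all genes with such a p.

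At 30 µM against vehicle, 2 of the 20 further chaperones and proteases were called, both lower, beside 7.05% of all genes tested (3.19% lower). They were PHB2 (-0.22) and STOML2 (-0.23), a prohibitin and a relative that scaffold inner membrane proteases. TOMM40, the outer membrane channel, was the 1 import gene of 18 called, beside the same 7.05%, at -0.28 (SE 0.09, adjusted p = 0.0385). Of the 8 TRiC subunits 0 were called by edgeR or DESeq2, and 5 had an unadjusted p under 0.05, beside 20.5% of all genes. In the cytosolic and ER relatives 4 of 7 were called, all higher, beside 7.05% of all genes tested, with HSPA5 at 1.46 and HSP90B1 at 0.81. As the list holds 3 ER genes, these calls were not confined to the ER. DDIT3 (1.34) and ATF4 (0.45) were higher as well.

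The compounds AA132 and AA147 were compared directly at the matched dose of 10 µM. No gene of the 10 was called, beside 0.0674% of all genes tested, and 1 had an unadjusted p under 0.05, beside 8.01% of all genes. DESeq2 called 0 of the 10 as well. The p-values were adjusted over all genes, and 10 differences were examined. HSPE1 had the largest difference of AA132 from AA147, 0.23 on the log2 scale (95% interval 0.05 to 0.41, adjusted p = 0.438). LONP1 differed by 0.16 (95% interval -0.01 to 0.32, adjusted p = 0.639) and HSPA9 by 0.09 (-0.01 to 0.19, adjusted p = 0.667). CLPP had the lowest value, -0.09 (-0.25 to 0.08, adjusted p = 0.841). These intervals leave room for a difference of up to 0.41, in HSPE1, so they do not show that the compounds act alike on these genes. Of the relatives outside mitochondria, HSP90B1 was called in this comparison, at 2208 CPM under AA132 and 1556 CPM under AA147 (0.50, adjusted p = 0.0167).

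AA132 at 30 µM and Tg at 500 nM are not matched doses, and their values are set side by side with the test of the difference. Between them 7 of the 10 genes were called, 2 higher under AA132 and 5 lower, beside 29.8% of all genes tested (14.3% higher and 15.5% lower). HSPE1 was higher under AA132, at 112.7 against 75.0 CPM (0.59, SE 0.09, adjusted p = 4.01e-06), and so was HSPD1, at 1095 against 969 CPM (0.18, SE 0.06, adjusted p = 0.0159, and 0.29 with GC content corrected, adjusted p = 0.00253). HSPA9 was lower, at 527 against 813 CPM (-0.63), as were LONP1, at 179 against 285 CPM (-0.67), YME1L1, at 281 against 368 CPM (-0.39), and DNAJA3, at 93.2 against 119 CPM (-0.36), with adjusted p-values from 7.83e-12 (HSPA9) to 1.45e-05 (DNAJA3). The 5 genes with the smallest p-values are thus ones that moved under Tg and were not called under AA132 at 30 µM.

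GRPEL1, at 41.1 CPM under AA132 at 30 µM and 50.1 CPM under Tg, was also lower (-0.29, SE 0.09, adjusted p = 0.0205). This call was lost with GC content corrected (-0.22, adjusted p = 0.0753) and without AA132 30 µM library 1 or 2 or Tg library 1 or 3 (adjusted p = 0.126, 0.0527, 0.0707 and 0.126). HSPD1 was no longer called after removal of AA132 30 µM library 3 or of Tg library 1 (adjusted p = 0.0684 and 0.0593). TRAP1 was not called here (-0.16, adjusted p = 0.0770) but was with GC content corrected (-0.21, adjusted p = 0.00343), in the fit of these 2 conditions alone (-0.14, adjusted p = 0.0341), and without vehicle library 1 (-0.15, adjusted p = 0.0266), which enters through the shared estimate of spread.

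Over all 11 conditions together, 7 of the 10 genes differed (edgeR F-test on 11 conditions), beside 30.8% of all genes tested. GRPEL1 (adjusted p = 0.174), CLPP (0.598) and HTRA2 (0.291) were not called. When the Tg libraries were left out, TRAP1 alone was called (adjusted p = 0.0324), and the next lowest was HSPE1 (0.0931). HSPD1 was not called without Tg library 1 (adjusted p = 0.151), without Tg library 2 (0.114) or without the filter on low counts (0.0618), and HTRA2 was called without vehicle library 1 (0.00396).

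The genes fell into different patterns across the conditions, given here as Pearson r of mean log2 CPM over 11 points that share library scaling and, for Tg, a single extreme point. HSPA9 and LONP1 had r = 0.97, which was 0.64 over the 10 conditions without Tg. HSPD1 and HSPE1, the divergent pair shown above, had r = 0.95 and 0.68 without Tg. HSPD1 and HSPA9 had r = -0.81 with Tg and 0.84 without it, so the sign of this relation turned when Tg was left out. TRAP1 and GRPEL1 had r = 0.80 and 0.85 without Tg, and both had their lowest mean at 30 µM AA132.

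HSPE1, LONP1 and HSPA9 had the widest range of condition means, 1.02, 0.75 and 0.63 on the log2 scale. Among 9786 genes with a mean of at least 10 CPM, the pattern of HSPE1 was most like those of CCT6A (r = 0.98 over 11 conditions and 0.90 over 10 without Tg), LUC7L3 (0.97 and 0.89) and BID (0.97 and 0.87). For LONP1 the nearest were RRBP1 (0.99 and 0.94), MTHFD1L (0.99 and 0.91) and CCDC174 (0.99 and 0.89). For HSPA9 they were GOLGA5 (0.99 and 0.85), ARF4 (0.99 and 0.71) and GOSR2 (0.98 and 0.64). With 11 points such values are common, since 182, 480 and 550 genes had r above 0.9 with HSPE1, LONP1 and HSPA9.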

How the data were processed

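The deposited table gives expected counts per gene (unit: estimated counts) that the authors did not scale between libraries, with 0.009 standing in place of 0 in 43.5% of cells and fractional values in 3.22%. The genome build is GRCh38.p7, per the submitters' processing notes, while the aligner, counter, annotation and use of strand are not given in the sources used here. Of 38074 entries, 98 sharing 45 names were summed to 38021 genes, and 28 entries with names turned into dates were kept apart. Zeros were restored and the expected counts rounded. Within conditions the columns differed beyond counting error (chi-square per degree of freedom from 4.67 to 64.5 over 33 pairs), so none was merged.

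Counts were fitted in edgeR 4.0.16 (R 4.3.3) with TMM scaling, the edgeR filter on low counts (17793 genes), all 11 conditions in 1 fit and no block. Quasi-likelihood F-tests were adjusted by Benjamini-Hochberg over all genes of a comparison and called under 0.05, and intervals are 95%. Dose was fitted as log10 µM over the 24 AA132 libraries. The scripts were tested on simulated data. Values by library are TMM-scaled CPM, and log2 CPM used a prior count of 2. Positions, canonical transcript lengths and GC content are from GENCODE v44 (23028 genes matched by symbol and 1110 by an older name), with a GC value for 86.4% of tested genes. The genes and all lists were chosen with earlier results of these data known. The rule named all 10 genes and the 3 genes most like each of the 3 widest-ranging patterns. It let list genes be named only where called or where highest or lowest of their list. Not every called list gene is named. CLPX, ATF5 and the CACGTG motif were added after their values or letters were seen. Alternatives were DESeq2 1.42.0, RLE factors, no filter, a replicate block, fits of 2 conditions, each library left out, no Tg, no 30 µM dose and, chosen after seeing the data, correction for GC content.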

Additional observations from a re-analysis of the deposited data

How the results depend on the processing

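The numbers of the 3 columns of a condition showed no clear pairing of libraries across conditions. Residuals of libraries with the same number had a median correlation of 0.00 (-0.15 to 0.18 over 165 pairs). Libraries with different numbers had 0.00 as well (-0.14 to 0.22 over 330 pairs), and 14 of 33 libraries correlated best with their own number. With the number as a replicate block, the count of called genes changed in 1 of 14 comparisons, AA132 at 30 µM against vehicle, from 1 to 2 with GRPEL1 added. That comparison was the least settled. It gave 2 genes without the filter on low counts, 2 with DESeq2, 2 with GC content corrected, 2 with GC content corrected and vehicle library 1 left out (TRAP1 and HTRA2), and 0 in the fit of the 2 conditions alone, where the spread is estimated from 6 libraries. With GC content corrected, AA132 at 15 µM gave 1 gene, TRAP1. With vehicle library 1 also left out, AA132 at 10 µM gave 1, HSPE1 (0.33, adjusted p = 0.0330). The test over all conditions gave 1 gene without Tg, and the slope gave 1 without the 30 µM dose. Leaving out 1 library at a time gave 0 to 1 genes at 3 µM, 0 to 2 at 6 µM, 0 to 2 at 10 µM, 0 to 1 at 15 µM, 1 to 2 at 30 µM, 1 to 3 for the slope, 6 to 7 for Tg, 5 to 8 for AA132 at 30 µM against Tg, and 6 to 8 for the test over all conditions. It gave 0 in every such fit for AA147, for AA132 at 0.1, 0.3 and 1 µM, and for AA132 against AA147. The cause of these changes was not tested. No value of a called gene turned its sign under any alternative run. GC values cover 15373 of the genes tested.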
